A study of Mus musculus with 31 samples.

Results

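The thick filament is the myosin component of the muscle contractile unit, and 8 genes that build it in heart muscle are described here across 31 Affymetrix arrays. They are the heavy chains Myh6 and Myh7, the regulatory light chains Myl7 and Myl2, the essential light chains Myl4 and Myl3, the myosin-binding protein Mybpc3 and the M-band protein Myom1. The members were taken by name and not by a cut on their values, though earlier results of these data were known. All 8 were measured among 18194 genes. Each was read from the probe set that is annotated to that gene alone and has the highest mean over the 31 arrays.

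RNA came from iPSCs of mice, body cells returned to an embryo-like pluripotent state, and from embryoid bodies, the aggregates in which such cells differentiate. The starting cells were tail-tip fibroblasts of adult male animals, reprogrammed with Sendai virus. Controls were wild type CD1, and the Nos3-/- groups were B6.129P2-Nos3tm1unc/J. Nos3 is the nitric oxide synthase of endothelium and heart muscle. Day 0 cells grew on inactivated embryonic fibroblast feeders (10 control and 6 Nos3-/- arrays), and day 11 embryoid bodies had differentiated spontaneously after aggregation in microwells (9 control and 6 Nos3-/- arrays). Genotype and strain differ together between the groups, so an effect of Nos3 and one of strain cannot be told apart. Whether the arrays within a group stand for separate animals, clones or cultures is not stated in the labels. The p-values below therefore cover array-to-array spread alone, and that spread may be technical.

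In a heart muscle cell, heavy chains form the motor and the rod of myosin, and each motor carries a regulatory and an essential light chain. Mybpc3 binds along the filament and tunes the motors, and Myom1 links filaments at the middle of the sarcomere. In the formed chambers, Myl7 and Myl4 are kept in the atria and Myl2 and Myl3 in the ventricles. In the mouse, Myh7 is the main ventricular heavy chain before birth and Myh6 is that of the atria, taking over in the ventricle after birth. Some forms also occur in skeletal muscle, Myh7 and Myl3 in slow fibres and Myl4 in embryonic fibres.

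Levels are log2 intensities as deposited, so a difference of 1 is a doubling, and array medians lay between 6.13 and 6.23. Probe sets differ in how brightly they report a transcript, so levels are compared between arrays for a gene and never between genes. Differences were tested with limma over all genes, with 0.05 as the limit for a Benjamini-Hochberg adjusted p. The labelled states were checked with Pou5f1, a pluripotency factor, which fell by 0.90 from day 0 to day 11 in control and was still at 11.66 ± 0.43 (SD, n = 9) there. In Nos3-/- it was at 12.69 ± 0.57 (SD, n = 6) and then at 12.37 ± 0.32 (SD, n = 6), and the change of -0.32 missed the limit (limma adjusted p = 0.251). The mean correlation of an array with the others of its group was lowest for Nos3-/- day 11 replicate 3 (0.969) and was between 0.978 and 0.992 on the other arrays.

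From day 0 to day 11, all 8 genes rose in control, where 16% of all genes rose. In Nos3-/- 5 of the 8 rose, where 13% of all genes did, and the other 3 had positive changes that did not pass. The median change of the 8 was 2.74 in control and 2.21 in Nos3-/-, against -0.03 and -0.06 over all genes. In bulk RNA, fewer cells of a type and less RNA per cell cannot be told apart, so these levels do not separate more heart muscle cells from more myosin RNA in each.

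**Figure D1:**
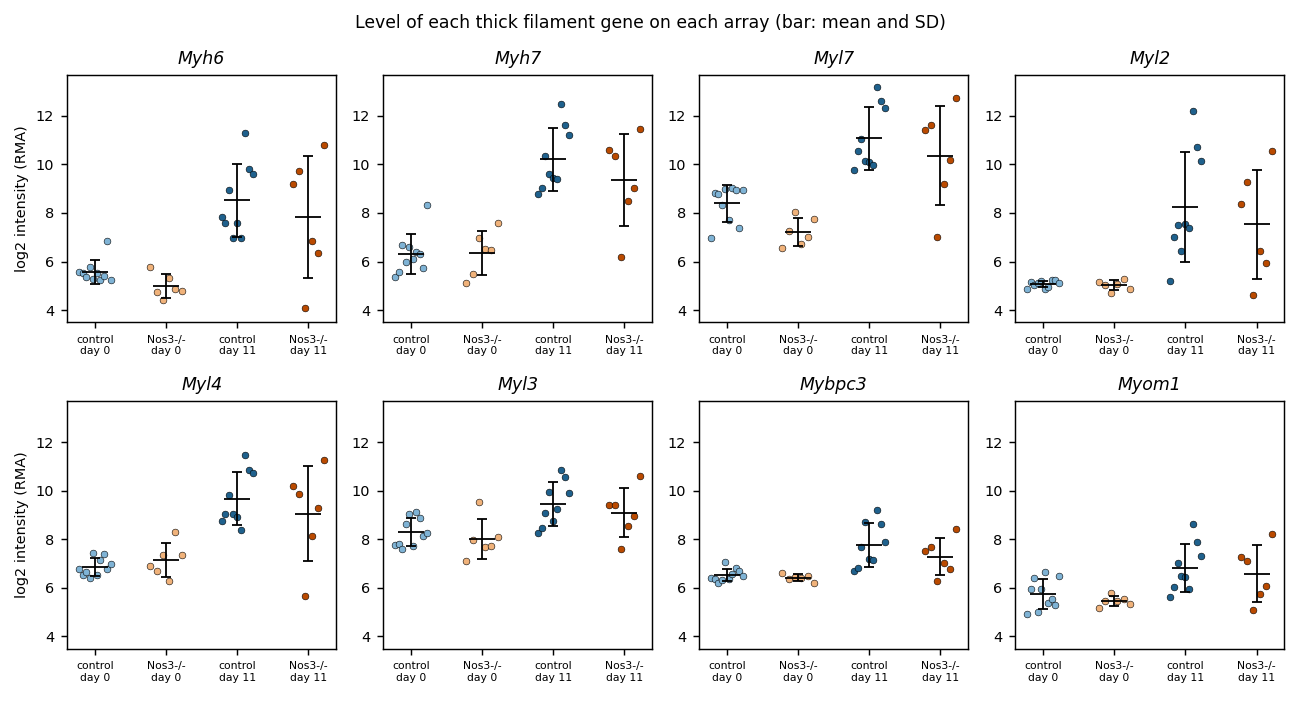
Level of each gene (vertical axis, log2 intensity) on each array in the 4 groups (horizontal axis), with points in order of replicate number and bars for the mean and SD. Day 11 points spread far more than day 0 points in most genes, as for Myl2, whose SD was 0.14 in control at day 0 and 2.26 at day 11.

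The heavy chains had large changes. Myh7 was at 5.36, 6.21 and 8.32 (lowest, median, highest of 10) in control at day 0 and at 8.79, 9.60 and 12.48 (of 9) at day 11. The control arrays of the different days did not overlap. Such upward separation was seen in 4 of the 8 genes in control (Myh6, Myh7, Myl7 and Myl4) and in 2.89% of all genes, and in Nos3-/- in 0 of 8 and 3.25%. The Myh7 change in control was 3.91 (SE 0.54, limma adjusted p = 1.75e-06), the 13th highest rise of the 18194 genes. In Nos3-/- Myh7 went from 5.13, 6.50 and 7.59 (of 6) to 6.17, 9.69 and 11.45 (of 6), a change of 2.99 (SE 0.68, limma adjusted p = 0.00151). Every Nos3-/- day 11 array but replicate 3 was above all Nos3-/- day 0 arrays.

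Myh6 was at 5.22, 5.46 and 6.84 in control at day 0 and at 6.95, 7.85 and 11.30 at day 11, again without overlap. Its change was 2.95 (SE 0.61, limma adjusted p = 0.000356). In Nos3-/- Myh6 went from 4.40, 4.83 and 5.77 to 4.08, 8.02 and 10.80, a change of 2.85 (SE 0.77, limma adjusted p = 0.00581). The lowest of these day 11 values, in replicate 3, was below every day 0 array, and the other 5 were above them all.

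Myh6 and Myh7 are near-identical neighbours on chromosome 14 with 0 protein-coding genes between them, and cross-hybridization between them was not tested. One probe set annotated to both genes had means of 6.27 and 9.36 in control and of 6.03 and 8.63 in Nos3-/-, at day 0 and day 11. The other shared probe set stayed between group means of 4.01 and 4.22. A second Myh6 probe set stayed between 2.84 and 2.90, so the Myh6 result comes from 1 of its 2 own probe sets.

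Among regulatory light chains, Myl7 was already the more variable gene at day 0. It was at 6.98, 8.81 and 9.03 in control day 0 cells and at 9.76, 10.55 and 13.19 in control embryoid bodies, with no overlap. The change was 2.68 (SE 0.54, limma adjusted p = 0.000262). In Nos3-/- Myl7 went from 6.57, 7.14 and 8.02 to 7.01, 10.81 and 12.72, a change of 3.14 (SE 0.68, limma adjusted p = 0.000937) and the 8th highest rise of all genes there.

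Myl2, the light chain used to mark ventricular muscle, lay between 4.70 and 5.28 on all 16 day 0 arrays. In control embryoid bodies it was at 5.20, 7.52 and 12.18, and 8 of the 9 arrays were above every control day 0 array. The exception was replicate 1. The Myl2 change was 3.16 (SE 0.69, limma adjusted p = 0.000602) in control. In Nos3-/- embryoid bodies Myl2 was at 4.61, 7.42 and 10.54, a change of 2.51 (SE 0.86, limma adjusted p = 0.0265). That call was lost without Nos3-/- day 11 replicate 1 (2.34, limma adjusted p = 0.0578), 2 (2.16, 0.0761) or 6 (1.91, 0.0898).

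The essential light chains were each measured by several probe sets, which did not give the same changes. In the probe set used, Myl4 was at 6.39, 6.78 and 7.43 in control at day 0 and at 8.38, 9.05 and 11.48 at day 11, without overlap, a change of 2.81 (SE 0.48, limma adjusted p = 3.41e-05). In Nos3-/- it went from 6.30, 7.11 and 8.30 to 5.65, 9.57 and 11.25, a change of 1.91 (SE 0.60, limma adjusted p = 0.0168). Replicates 3 and 4 did not exceed the highest day 0 array. The Nos3-/- call of Myl4 was lost without day 11 replicate 6 (1.48, limma adjusted p = 0.0591) and in a fit of the Nos3-/- arrays alone (1.91, 0.0912). A second Myl4 probe set hardly moved, with group means between 6.22 and 6.50.

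Myl3 was at 7.60, 8.19 and 9.13 in control at day 0 and at 8.25, 9.26 and 10.86 at day 11, and 5 of the 9 arrays exceeded the day 0 range. The change was 1.16 (SE 0.36, limma adjusted p = 0.0128). In Nos3-/- Myl3 was at 7.10, 7.87 and 9.53 and then at 7.59, 9.18 and 10.61. Only replicate 6 lay above the day 0 range, and the change of 1.06 (95% confidence interval 0.14 to 1.99) did not pass (SE 0.45, limma adjusted p = 0.073). Group means of the other Myl3 probe sets were also higher at day 11, at 9.65 and 8.90 against 7.86 and 7.64 in control.

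Mybpc3 and Myom1, the proteins that bind and link the filaments, had changes near that of Myl3. Mybpc3 was at 6.20, 6.45 and 7.08 in control at day 0 and at 6.70, 7.68 and 9.22 at day 11, where replicates 1 and 2 lay within the day 0 range. It rose by 1.25 (SE 0.27, limma adjusted p = 0.000546). Its values in Nos3-/- were 6.19, 6.44 and 6.63 and then 6.27, 7.26 and 8.44, with a change of 0.86 (SE 0.34) that narrowly failed to pass (limma adjusted p = 0.0523).

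Myom1 went from 4.92, 5.75 and 6.65 to 5.63, 6.48 and 8.63 in control, and 5 of the 9 arrays stayed within the day 0 range. It rose by 1.06 (SE 0.36, limma adjusted p = 0.0222), a call lost without control day 11 replicate 7 (0.83, limma adjusted p = 0.0593) or 8 (0.92, 0.0514). In Nos3-/- Myom1 was at 5.18, 5.44 and 5.77 and then at 5.09, 6.60 and 8.23, a change of 1.14 (SE 0.45, limma adjusted p = 0.0528). Without Nos3-/- day 11 replicate 3, Myl3 (1.36), Mybpc3 (1.06) and Myom1 (1.44) all passed (limma adjusted p from 0.013 to 0.0189), so that 8 of 8 genes rose. That array was the lowest of its group in 8 of 8 genes. Without it, the genes passing in either direction over all 18194 also went up, from 5658 to 6092.

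**Figure D2:**
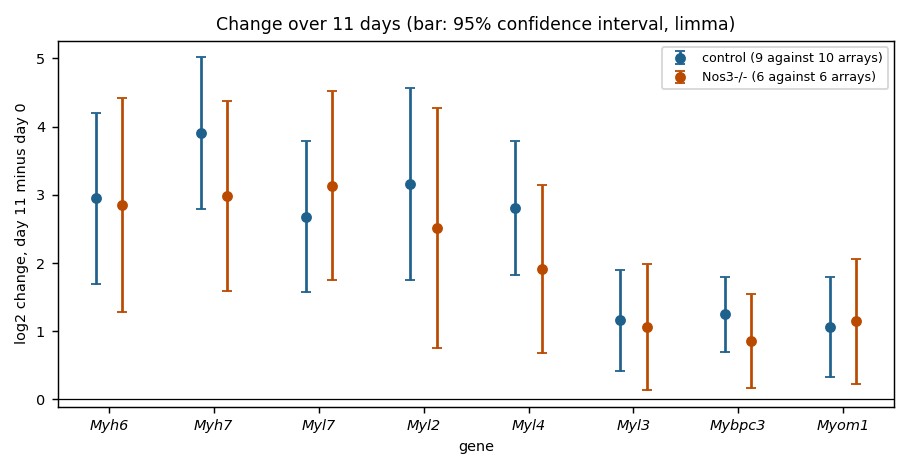
Change from day 0 to day 11 (vertical axis, log2) for each gene in control and Nos3-/-, with 95% confidence intervals of the limma fit. All intervals lie above 0 in this fit, and those of the genotypes overlap for each of the 8 genes. The fit shares 1 spread per gene over the 4 groups, although Myl4 in Nos3-/- had an SD of 0.69 at day 0 and 1.96 at day 11. Intervals of such genes may be too narrow.

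Since these genes rose together, the 250 bases before their annotated start sites were searched for letter patterns bound by muscle factors, in RefSeq windows of GRCm38.p6 that matched all 8 genes. A CArG box, the pattern of serum response factor, was found before 3 of the 8 (Myl7, Myl3 and Myom1) and before 1.47% of 32851 windows. A MEF2 motif was found before 1 (Mybpc3) and before 0.508% of windows. The GATA motif (the letters GATA with A or T before them and A or G after them) was found before 5 and before 26.5% of windows. Both strands were searched, matches of different motifs did not overlap in these windows, and a match is a description of letters and not of binding.

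The 4 windows with a CArG box or a MEF2 motif are shown because these patterns are rare among all windows. They are given 5′ to 3′ on the strand of the gene with CArG, MEF2 and GATA matches in capitals. They lie at chr11:5898783-5899032 (minus strand) for Myl7, chr9:110763428-110763677 (plus) for Myl3, chr17:71019307-71019556 (plus) for Myom1 and chr2:91117894-91118143 (plus) for Mybpc3.
Myl7: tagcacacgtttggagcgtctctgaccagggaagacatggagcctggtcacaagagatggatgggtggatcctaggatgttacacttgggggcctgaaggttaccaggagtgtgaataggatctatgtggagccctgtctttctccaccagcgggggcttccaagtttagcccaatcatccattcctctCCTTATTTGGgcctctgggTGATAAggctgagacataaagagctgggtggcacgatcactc
Myl3: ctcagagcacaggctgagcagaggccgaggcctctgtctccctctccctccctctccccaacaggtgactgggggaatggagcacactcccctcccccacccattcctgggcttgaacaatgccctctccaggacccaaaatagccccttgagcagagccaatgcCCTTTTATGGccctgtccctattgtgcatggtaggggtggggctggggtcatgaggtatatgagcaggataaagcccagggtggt
Myom1: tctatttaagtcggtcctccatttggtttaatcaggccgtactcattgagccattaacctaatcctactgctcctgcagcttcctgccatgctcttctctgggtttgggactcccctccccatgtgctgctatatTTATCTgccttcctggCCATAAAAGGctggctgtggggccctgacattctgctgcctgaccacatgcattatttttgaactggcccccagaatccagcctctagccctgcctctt
Mybpc3: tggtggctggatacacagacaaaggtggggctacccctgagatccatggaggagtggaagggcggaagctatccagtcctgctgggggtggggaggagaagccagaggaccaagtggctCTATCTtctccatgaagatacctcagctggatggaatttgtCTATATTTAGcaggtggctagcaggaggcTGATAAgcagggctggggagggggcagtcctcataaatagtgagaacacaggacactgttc

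In the Myl7 window the CArG box spans bases 61 to 52 before the start site and a GATA match bases 42 to 37. The CArG box of Myl3 spans bases 85 to 76 and that of Myom1 bases 99 to 90, and the MEF2 match of Mybpc3 spans bases 90 to 81. Other patterns were less selective. CATTCC, the MCAT motif, was found before 4 of the 8 genes (12.6% of windows), CANNTG, the E-box, before 7 (66.2%), TNAAGTG, the NKX2-5 motif, before 1 (Myh7, 10.1%) and TATAAA before 1 (Myl2, 12.4%).

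At day 11 the genotypes overlapped in all 8 genes, a count that was not made over all genes. Overlap is easily reached here, as Nos3-/- arrays spread widely (Myh6 from 4.08 to 10.80). Each of the 8 had a lower mean in Nos3-/- embryoid bodies, with a median difference of -0.65 against 0 over all genes. In limma 0 of 8 passed, where 9.7% of genes did, and 0 of 8 had an unadjusted p under 0.05. These differences depended on single arrays, in both directions. When any 1 array was left out, the difference ran from -1.29 to -0.23 for Myh7. It ran from -1.30 to -0.12 for Myl2 and from -1.28 to 0.07 for Myh6. Without Nos3-/- replicate 3 the median difference was -0.06, and 5 of the 8 means were still lower in Nos3-/-, from -0.30 for Mybpc3 and -0.23 for Myh7 to -0.04 for Myl7. The means of Myh6 (0.07), Myl4 (0.07) and Myom1 (0.07) were then slightly higher. Myh7 averaged 10.21 ± 1.29 (SD, n = 9) in control against 9.35 ± 1.89 (SD, n = 6) without Nos3, a difference of -0.87 (95% confidence interval -2.14 to 0.41, limma adjusted p = 0.472). For Myl2 the means were 8.23 ± 2.26 (SD, n = 9) and 7.53 ± 2.24 (SD, n = 6), a difference of -0.70 (95% confidence interval -2.31 to 0.91, limma adjusted p = 0.692). The fit shares 1 spread per gene with the day 0 arrays, where the Myl2 SD was 0.14 in control and 0.21 in Nos3-/-. The intervals given here may therefore be too narrow for day 11. Differences ranged from -0.87 for Myh7 to -0.23 for Myom1 (95% confidence interval -1.07 to 0.61). Beside these, 6 of 15 pluripotency genes were higher and 0 lower in Nos3-/- embryoid bodies (limma), 2 of 19 fibroblast markers were higher and 9 lower, and 0 of 12 yolk-sac endoderm genes were higher and 8 lower (7 lower without Nos3-/- replicate 3). Their part in the levels of the 8 genes was not tested.

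At day 0 the 8 genes did not pass between genotypes either (0 of 8 in limma, 16.6% of all genes, and 0 of 8 at an unadjusted p under 0.05). Differences ranged from -1.17 for Myl7 to 0.28 for Myl4. Myl7 averaged 8.40 ± 0.76 (SD, n = 10) in control, against 7.22 ± 0.57 (SD, n = 6) for the mutant cells. Control replicates 1, 6 and 9 (6.98, 7.70 and 7.40) lay within the Nos3-/- range and the other 7 above it. The Myl7 difference did not pass in the fit of all 31 arrays (SE 0.61, limma adjusted p = 0.192), which shares 1 spread per gene between the quiet day 0 and the variable day 11 arrays. When the 16 iPSC arrays were fitted by themselves it passed (-1.17, limma adjusted p = 0.0291), among 2504 of 18194 genes. Means over 19 fibroblast and feeder markers also differed there, at 10.54 ± 0.35 (SD, n = 10) for control against 9.89 ± 0.41 (SD, n = 6) for Nos3-/-, with 0 of 19 higher and 7 lower in limma, and their part in the Myl7 difference was not tested.

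The change over time did not differ between genotypes in any of the 8 genes in limma (0 of 8 passed, 1.24% of all genes did, and 0 of 8 at an unadjusted p under 0.05). The differences in change ran from -0.92 for Myh7 (95% confidence interval -2.70 to 0.86) to 0.46 for Myl7 (95% confidence interval -1.32 to 2.23). Single arrays moved these values widely. Without Nos3-/- day 11 replicate 6 or 3 the difference was -1.34 or -0.28 for Myh7, -0.01 or 1.13 for Myl7 and -0.69 or 0.65 for Myh6, and 0 of 8 genes passed in limma when any 1 array was left out.

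Within each genotype, some day 11 arrays were high and others low in nearly all 8 genes. Control replicate 7 had the highest value of its group in 8 of 8 genes, and replicate 8 was among the highest 3 in 8 and replicate 9 in 6. In Nos3-/- replicate 6 was highest in 8 of 8 genes and replicate 3 lowest in 8 of 8. The mean of the 8 genes was 11.17, 10.34 and 9.89 in control replicates 7, 8 and 9 and between 7.62 and 8.93 in the other 6. It was 10.51 in Nos3-/- replicate 6, 9.38 and 9.24 in replicates 2 and 1, 7.82 and 7.56 in replicates 5 and 4, and 5.81 in replicate 3. That last value lies below every Nos3-/- day 0 array, where the mean of the 8 ran from 6.05 to 6.65.

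**Figure D3:**
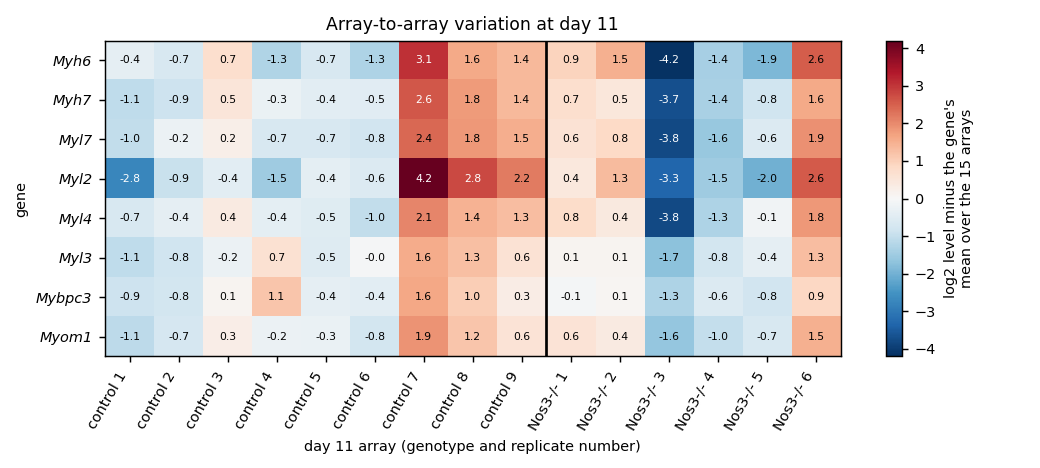
Level of each gene (rows) on each day 11 array (columns, control left of the line and Nos3-/- right) minus the mean of that gene over the 15 arrays, in log2. Control 7 and Nos3-/- 6 are high in every row, and Nos3-/- 3 is low in every row.

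Within the 6 Nos3-/- embryoid body arrays, the 28 pairs of genes all varied together, with Pearson r from 0.889 to 0.994 and Spearman rho from 0.886 to 1. All 28 passed after adjustment over 56 tests (exact permutation, two-sided, adjusted p at most 0.0198 for r and 0.0373 for rho). How many pairs of other genes would pass in these 6 arrays was not counted, so the 28 are not set apart from genes in general. Replicate 3, the lowest in 8 of 8 genes, was also the array least like its group over all probe sets (mean r = 0.969). Without the 2 arrays farthest from the median, the lowest r was 0.66 and the median 0.92. In control the 3 high arrays form a cluster, so no pooled value is given. Among the other 6 control arrays (a subset picked once the values were known), 26 of the 28 pairs had a positive r, with a median r of 0.56 and a median rho of 0.51, and 0 passed (exact permutation, lowest adjusted p = 0.136, 3 pairs at an unadjusted p under 0.05). The exceptions were Myh6 with Myl3 (r = -0.36) and Myh6 with Mybpc3 (r = -0.16). Control replicate 4 was among the highest 3 arrays for Myl3 (9.96) and Mybpc3 (8.73) while its Myh6 was at 6.98, near the lowest value of the group.

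Other cell types also differed between these arrays. The means of 11 blood genes were 7.36, 7.20 and 7.33 in control replicates 7, 8 and 9 against 5.62 to 6.98 in the other control arrays, and ran from 5.44 to 6.92 in Nos3-/-. Means over 19 fibroblast markers were 9.87, 9.76 and 9.60 in control replicates 7, 8 and 9 against 8.63 to 9.65 in the other control arrays, and ran from 7.91 to 8.86 in Nos3-/-. In Nos3-/- replicate 3 the means of 16 cardiac transcription factors (6.19), 10 endothelial genes (5.80), 12 yolk-sac endoderm genes (5.69) and 15 pluripotency genes (8.72) were each the lowest of its group. Not every list was low in that array. Its mean of 9 neural genes (7.08) was the highest of the group, next to 7.07 in replicate 4, and its fibroblast mean was 8.48. The part of these cell types in the level of the 8 genes was not tested.

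Skeletal muscle genes were counted too, since some of the 8, such as Myh7, Myl3 and Myl4, also occur in skeletal fibres. Of 27 measured, 4 rose, 7 fell and 16 did not pass over time in control, with a median of -0.05, and 2 rose and 6 fell in Nos3-/- with a median of -0.12. Over all genes, 6227 of 18194 passed in control in either direction (2919 higher) and 5658 in Nos3-/- (2359 higher). These totals are the background for the changes over time in the lists that follow as well. Myod1, the master factor of skeletal muscle, was named after its values were seen. It changed by -0.02 in control (limma adjusted p = 0.899) and was between 4.77 and 5.36 in control embryoid bodies. Other genes of the list moved in either direction, with control means going from 5.31 to 6.50 for Tnnt3 and from 9.70 to 7.80 for Tnnt1. The means of the list ran from 5.37 to 5.52 in control and from 5.37 to 5.65 in Nos3-/- embryoid bodies. The part of skeletal muscle in the levels of the 8 genes was not tested.

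Atrial and ventricular forms both rose in control, and how their ratio changed depended on the pair. Ratios are log2 atrial minus log2 ventricular signal on the same array. Only their change between arrays has a meaning, and as a combination of members they were not tested. At day 0 the medians of Myh6 (5.46 in control and 4.83 in Nos3-/-) and all Myl2 values (4.70 to 5.28) were below the array medians (6.13 to 6.23). Whether those signals stood above background was not tested, so day 0 ratios with Myh6 or Myl2 may not show a balance of forms. Myl4 over Myl3 went from -1.44 ± 0.41 (SD, n = 10) at day 0 to 0.21 ± 0.66 (SD, n = 9) at day 11 in control, without overlap. The highest day 0 value was -0.95 and the lowest day 11 values were -0.93 and -0.88, in replicates 4 and 6. In Nos3-/- the same ratio went from -0.88 ± 0.96 (SD, n = 6) to -0.03 ± 1.03 (SD, n = 6), and the groups overlapped. The change rested on the choice of probe set: with all probe sets of each gene averaged, the ratio was -1.39 at day 0 and -1.28 at day 11 in control, and -0.68 and -0.83 in Nos3-/-.

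Myh6 over Myh7 went the other way in control, from -0.74 ± 1.13 (SD, n = 10) to -1.70 ± 0.55 (SD, n = 9), with overlap. In Nos3-/- it was -1.38 ± 1.26 (SD, n = 6) and then -1.52 ± 0.81 (SD, n = 6). The day 0 ratio in control ran from -3.10 in replicate 10 to 1.10 in replicate 9, the arrays with the highest Myh7 and the highest Myh6. With averaged probe sets, where the flat Myh6 probe set enters, the ratio was -2.10 and -4.50 in control and -2.43 and -3.99 in Nos3-/-.

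**Figure D4:**
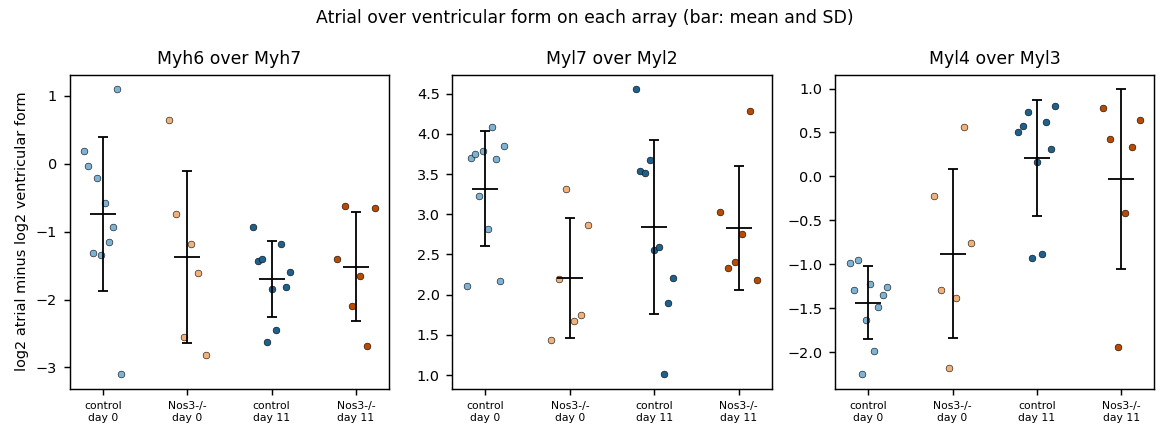
Log2 ratio of the atrial to the ventricular form (vertical axis) on each array in the 4 groups for 3 pairs of genes, with bars for the mean and SD. Myl4 over Myl3 is higher on every control day 11 array than on any control day 0 array, and the other pairs overlap between days.

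Myl7 over Myl2 was at 3.32 ± 0.72 (SD, n = 10) and 2.84 ± 1.08 (SD, n = 9) in control on the 2 days, and at 2.21 ± 0.75 (SD, n = 6) and 2.83 ± 0.78 (SD, n = 6) in Nos3-/-. At day 0 the ratio varied mainly with Myl7, since Myl2 hardly varied. At day 11 the lowest ratio, 1.01, was in control replicate 7, where Myl2 was at 12.18, and the highest, 4.56, was in control replicate 1, where Myl2 was at 5.20 and Myl7 at 9.76. Nos3-/- replicate 5 had a ratio of 4.28 with Myl7 at 10.20 and Myl2 at 5.92. In both arrays Myl7 was above the day 0 range of its genotype, while Myl2 was within it in the control array and above it in the Nos3-/- array.

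**Figure D5:**
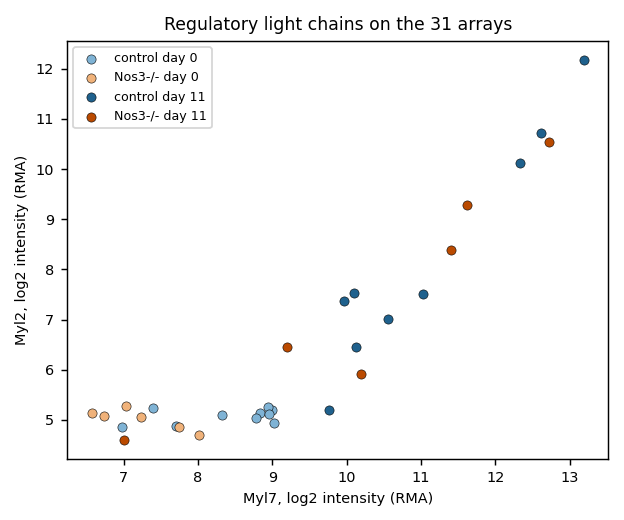
Myl2 (vertical axis) against Myl7 (horizontal axis), both in log2 intensity, on the 31 arrays coloured by group. Myl2 stays between 4.70 and 5.28 on day 0 arrays while Myl7 spans 6.57 to 9.03, and both are high together on the highest day 11 arrays.

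Other genes that mark the chambers did not move as 1 block. Of 13 ventricular chamber genes, 7 rose, 1 fell and 5 did not pass over time in control (6 rose and 1 fell in Nos3-/-), with medians of 0.46 and 0.65. Hey2, a repressor of atrial genes in the ventricle, rose by 2.18 in control (limma adjusted p = 7.43e-11) and by 0.71 in Nos3-/- (0.0154). Of 13 atrial chamber genes, 1 rose and 3 fell in control and 2 rose and 2 fell in Nos3-/- (4 rose without Nos3-/- day 11 replicate 3), with medians of -0.05 and 0.17. The potassium channel gene Kcna5 rose by 0.56 in control (limma adjusted p = 0.000326). Larger moves in this list went down, with control means going from 8.499 to 7.287 for Dkk3 and from 8.724 to 7.959 for Pam. Nppa, the atrial natriuretic peptide, named here after its values were seen, was at 4.43 ± 0.49 (SD, n = 9) in control embryoid bodies and changed by 0.18 (limma adjusted p = 0.384).

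The partners of the filament followed in part. Of 22 measured genes that assemble, anchor or modify it, 7 rose, 2 fell and 13 did not pass over time in control, and 4 rose and 1 fell in Nos3-/-, with medians of 0.08 and 0.12 (0.22 in Nos3-/- without day 11 replicate 3). Titin (Ttn), the spring along the filament, rose by 4.00 in control and by 3.92 in Nos3-/- (limma adjusted p = 4.93e-07 and 5.47e-05). Mylk3, the kinase of the cardiac regulatory light chain, rose by 1.37 and 0.88 (8.86e-05 and 0.034). Unc45b, a chaperone that folds myosin, rose by 0.97 and 1.38 (0.0498 and 0.0291). Csrp3, a Z-disc protein, rose by 1.26 in control (limma adjusted p = 0.00282) and changed by 0.80 in Nos3-/- (0.13). Of 17 genes of the thin filament and Z-disc, 7 rose and 1 fell in control and 6 rose and 1 fell in Nos3-/-, with medians of 0.79 and 0.24 (0.41 in Nos3-/- without day 11 replicate 3). Among these, troponin T (Tnnt2) rose by 4.73 and 4.44, and slow troponin I (Tnni1) by 3.90 and 2.93.

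Of 16 cardiac transcription factors, 10 rose and 0 fell over time in control, and 9 rose and 0 fell in Nos3-/-. Hand2 rose by 4.27 and 2.77, and Tbx20 by 3.99 and 2.44. At day 11, where the 8 myosin genes did not pass, 0 of the 16 factors were higher and 7 lower in Nos3-/- embryoid bodies (6 lower without Nos3-/- replicate 3), with a median of -0.83. The difference was -2.01 for Gata6 (limma adjusted p = 0.00542), -1.99 for Tbx20 (0.000997) and -1.99 for Hand2 (0.00899), and Mef2c, a factor that binds the MEF2 motif, differed by -0.22 (0.811). Some factors were lower before differentiation too: at day 0, 0 of the 16 were higher and 5 lower in Nos3-/-, with a median of -0.37. Day 0 means in control and Nos3-/- were 9.67 and 7.96 for Gata6, 5.76 and 5.31 for Tbx20 and 5.62 and 5.13 for Hand2. In the difference between genotypes in the change over time, 0 of the 16 passed as higher and 0 as lower. The difference between the factors and the 8 genes was not tested.

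The genes most like the 8 in pattern were found by Pearson r with their mean over the 15 day 11 arrays, among 16277 named genes that are no member. This r is a description over arrays that share the 2 groups and the wide spread shown above, with no test. Cardiac actin (Actc1) was first (r = 0.985), followed by Rcsd1 and Sh3bgr (both 0.971), Ccdc141 (0.953), Tnnt2 (0.952), Tnni1 (0.946), Hspb7 (0.937), Asb2 (0.935), Ldb3 (0.932) and Klhdc8b (0.930). Within the 9 control arrays these r were from 0.915 to 0.990 and within the 6 Nos3-/- arrays from 0.934 to 0.997. Actc1 was also the closest gene to Myh6, Myh7 and Myl7 taken singly (r = 0.973, 0.982 and 0.982), Tnnt2 to Myl4 (0.982), Hspb7 to Myl2 and Myom1 (0.962 and 0.949), Asb2 to Myl3 (0.940) and the sodium channel gene Scn7a to Mybpc3 (0.910).

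Not all of these genes changed over time. Hspb7, a small heat shock protein of heart muscle, was at 6.04 ± 0.21 (SD, n = 10) in control at day 0 and 6.07 ± 0.78 (SD, n = 9) at day 11, a change of 0.03 (limma adjusted p = 0.941). Asb2, part of a ubiquitin ligase in muscle, changed by 0.58 in control (limma adjusted p = 0.0583) and by 0.55 in Nos3-/- (0.159). Actc1 rose by 3.18 and 3.56 (limma adjusted p = 5.8e-05 and 0.000435), and Rcsd1, which binds actin capping protein, rose by 1.62 and 1.32 (8.44e-07 and 0.000561).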

How the data were processed

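The authors summarized 1 array per sample with RMA, per the submitters' processing notes, and the deposited values are log2 intensities (2.32 to 15.01). Software version, filters and batches are not given in the sources used here. The platform annotation named the probe sets: of 45101, 34958 had a single symbol, 932 had several and 9211 had none. A RefSeq gene of GRCm38.p6 matched 34754 of them. For each of 18194 genes, the probe set brightest on average over the 31 arrays was used.

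Values were taken as deposited into limma 3.58.1 (R 4.3.3). The model had 4 group means, with 27 residual and 2.80 prior degrees of freedom, and p-values were adjusted over all genes. One spread per gene was shared by the groups. The fit was tested on simulated data in which each gene had the same spread in every group. That check does not cover genes whose spread differed between the days. The members and gene lists were chosen with earlier results of these data known. Genes named are the 8 members, up to 3 passing genes with the largest change and the brightest that did not pass from each list, and the genes with the highest r. Others were named after their values were seen (Hspb7, Asb2, Actc1 and Rcsd1 over time, Mef2c, Kcna5, Dkk3, Pam, Myod1, Tnnt1, Tnnt3, Myh10 and Pou5f1).

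Same-numbered arrays were checked for pairing by the correlation of their deviations from group means, which ran from -0.274 to 0.352, so the numbers were not used as pairs. Alternatives covered normalization, probe set choice, filter, array weights, the arrays fitted and omission of single arrays.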

Additional observations from a re-analysis of the deposited data

Results flagged for a closer look

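In the 44 sets of values checked for a lone extreme array (8 genes and 3 ratios in 4 groups), 2 stood out, and chance gives about 1 in 20. Myh6 in control day 0 cells was highest in replicate 9, at 6.84, with the next array at 5.79, a gap of 0.648 of the whole range. Myh7 in control day 0 cells was highest in replicate 10, at 8.32, with the next array at 6.67, a gap of 0.557 of the range. These are different arrays: Myh7 was at 5.74 in replicate 9, and Myh6 was at 5.22, the lowest level of the group, in replicate 10.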

How the results depend on the processing

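All 8 genes rose over time in control under each alternative run, except that 7 to 8 did when single arrays were left out. In Nos3-/- the count of 5 became 8 with array weights and ran from 3 (without day 11 replicate 6) to 8 (without day 11 replicate 3) when single arrays were left out. It was 7 after quantile normalization, after centring each array on its median and without genes in the lower tertile of mean level, and 4 in the arrays compared alone. Over all 18194 genes, 5658 passed there in either direction as deposited and 6942 with array weights. The total was 5020 without replicate 6 and 6092 without replicate 3. Between genotypes the count was 0 on both days and for the difference in change under each alternative run, omission of single arrays included, except for 1 gene, Myl7, at day 0 in the arrays compared alone. With the replicate number as a replicate block, which pairs nothing here, the counts were 8 and 5 over time and 0 for the genotype comparisons.

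Averaging the probe sets of each gene, the log2 ratio of Myh6 over Myh7 was -2.10 in control at day 0, -4.50 in control at day 11 and -3.99 in Nos3-/- at day 11, since a Myh6 probe set that stays low enters the mean. The ratio of Myl4 over Myl3 was then -1.28 in control at day 11. Signs turned for Myh6 with Myl3 (-0.36) and Myh6 with Mybpc3 (-0.16) among the 6 lower control arrays.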

Other observations

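Of 16 genes of smooth muscle and non-muscle contraction, 2 rose, 11 fell and 3 did not pass over time in control, and 1 rose and 8 fell in Nos3-/- (2 and 7 without Nos3-/- day 11 replicate 3), with medians of -0.40 and -0.37. Myl9, the regulatory light chain of smooth muscle, fell by 2.47 in control and by 2.34 in Nos3-/- (limma adjusted p = 3.32e-07 and 5.98e-05). Calponin (Cnn1) fell by 2.47 and 1.53, and the smooth muscle actin gene Actg2 fell by 2.15 and 2.68. Myh10, a non-muscle heavy chain, rose in both genotypes, by 1.07 and 1.24 (limma adjusted p = 2.52e-08 and 5.57e-07). Means over the fibroblast and feeder markers were lower at day 11 as well, at 9.35 ± 0.40 (SD, n = 9) against 10.54 ± 0.35 (SD, n = 10) in control, and their part in these changes was not tested.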
